A study of Mus musculus with 8 samples.

Results

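Imprinted genes of growth control were followed in ovarian follicles, 10 in all: H19, Igf2, Meg3, Rian, Dlk1, Peg3, Nap1l5, Plagl1, Grb10 and Snrpn. They were chosen by name, and all 10 were among the 55157 genes of the deposited table. The samples were type 7-8 follicles (a morphological stage) from ovaries of Kunming mice, an outbred stock, at postnatal day 21. Every mouse had received PMSG, the serum gonadotropin of pregnant mares, which stimulates follicle growth through the FSH receptor, 24 hours earlier. The control group was given it with normal saline and the melatonin group with melatonin. There were 4 libraries per group, and no group without PMSG. Whether each replicate stands for its own animal or for a pool is not in the labels, so the p-values cover the spread between these libraries, part of which may be technical.

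An imprinted gene is transcribed mainly from the copy inherited from 1 parent, because DNA methylation laid down in the egg or the sperm marks a control region nearby. H19, Meg3 and Rian are maternally expressed non-coding RNAs. Igf2, Dlk1, Peg3, Nap1l5, Plagl1 and Snrpn are paternally expressed coding genes, and Grb10 is maternally expressed in most tissues. Many of these genes promote or restrain fetal growth and are turned down after birth. FPKM, the fragment count of a gene relative to its exon length and to the library total, adds the parental copies together, so these data hold no measure of imprinting itself.

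The promoters of 3 members are shown as description, and no expression result uses them. The genes were picked for their place in the results. Plagl1 is the member whose groups did not overlap, Nap1l5 the most abundant, and Meg3 the head of a run of non-coding RNAs on chromosome 12. Sequences are from RefSeq on GRCm38.p6, 5′ to 3′ on the gene's strand. Capitals mark TGCCGC (the hexamer bound by ZFP57, a protein that keeps imprints) or TATAAA (the TATA box), each read on either strand, so that GCGGCA and TTTATA are the same motifs reversed. In Meg3 a TATAAA and its reverse overlap. Plagl1 (chr10:13090582-13090831, plus strand) and Nap1l5 (chr6:58907127-58907376, minus strand) are given as the 250 bases before a RefSeq start, and Meg3 (chr12:109540746-109541045, plus strand) with 50 bases more. The Plagl1 start used lies inside the annotated gene, which begins upstream at chr10:13060504.
Plagl1: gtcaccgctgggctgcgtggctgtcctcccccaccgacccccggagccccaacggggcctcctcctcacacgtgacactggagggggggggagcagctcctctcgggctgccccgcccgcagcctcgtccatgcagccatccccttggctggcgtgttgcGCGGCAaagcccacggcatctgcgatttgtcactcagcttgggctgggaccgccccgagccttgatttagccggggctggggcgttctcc
Nap1l5: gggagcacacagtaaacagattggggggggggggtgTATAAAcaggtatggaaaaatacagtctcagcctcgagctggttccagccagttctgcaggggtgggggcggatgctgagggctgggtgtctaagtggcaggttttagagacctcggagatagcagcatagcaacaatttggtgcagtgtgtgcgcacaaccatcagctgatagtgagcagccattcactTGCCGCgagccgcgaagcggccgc
Meg3: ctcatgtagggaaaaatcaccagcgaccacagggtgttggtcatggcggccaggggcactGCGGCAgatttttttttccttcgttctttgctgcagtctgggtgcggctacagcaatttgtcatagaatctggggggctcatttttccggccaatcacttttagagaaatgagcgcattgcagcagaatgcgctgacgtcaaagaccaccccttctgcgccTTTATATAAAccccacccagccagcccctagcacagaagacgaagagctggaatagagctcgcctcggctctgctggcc

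The promoter table held 17 promoters of 300 bases for 9 members. H19 had no entry. TGCCGC was present on either strand in 6 of the 17, one each for Igf2, Meg3, Nap1l5, Plagl1, Grb10 and Snrpn, against 11.6% of all 32851 promoters and 19.4% of the promoters of tested genes. TATAAA was present in 3 of the 17, against 13.6% of all promoters and 7.08% of those of tested genes. The first Grb10 promoter had 45 CG dinucleotides, a number reached by 1.93% of promoters. Plagl1 had 26, Nap1l5 17, Meg3 13 and Rian 0, where the median was 7 over all promoters and 20 over those of tested genes. A match is a run of letters and not a measured binding site.

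The members differed widely in level. Nap1l5 was the most abundant, with a mean of 363 FPKM over the 8 libraries and rank 68 in the table. Plagl1 followed at 35.7 FPKM, Meg3 at 17.8, Rian at 7.35, H19 at 7.13, Peg3 at 5.88, Snrpn at 3.93 and Grb10 at 1.58. Dlk1 (0.337 FPKM) and Igf2 (0.0212 FPKM) lay under the filter of 1 FPKM, so 8 of the 10 members were tested. Among neighbours in this order, the ranges of Rian and H19 overlapped, with Rian higher in 4 of 8 libraries. Those of H19 and Peg3 overlapped too, with H19 higher in 6 of 8. Meg3 exceeded Rian, and Peg3 exceeded Snrpn, within each of the 8 libraries although the ranges overlapped. Plagl1 exceeded Meg3 in 7 of 8 libraries.

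**Figure D1:**
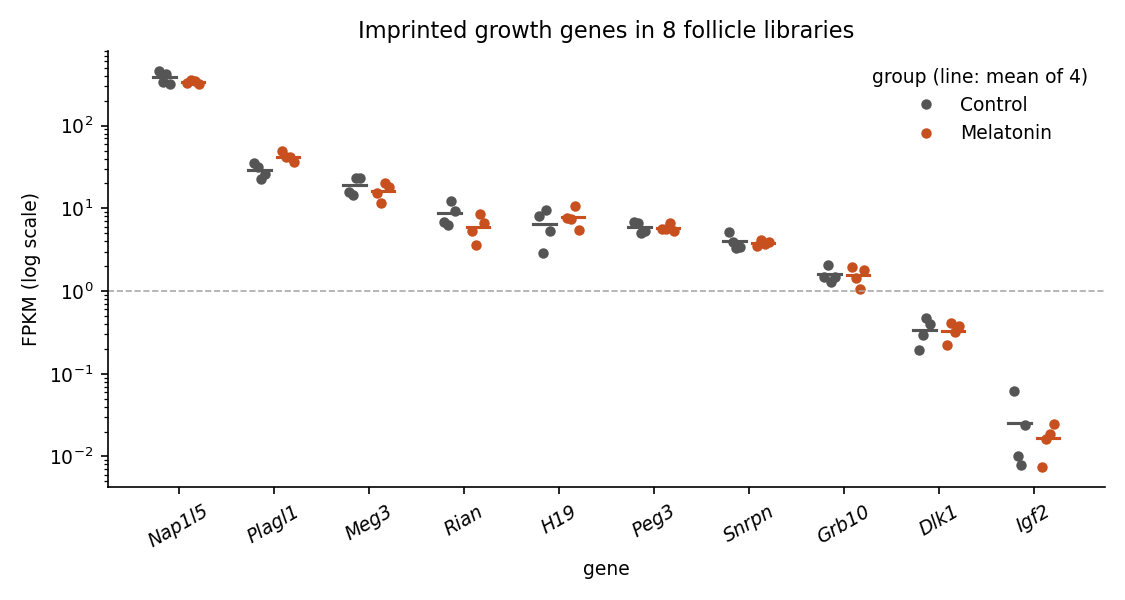
FPKM of the 10 imprinted growth genes on a log axis, with each point a library and each line the mean of 4 libraries. Nap1l5 sits near 363 FPKM and Igf2 near 0.0212, and only for Plagl1 do the melatonin points all lie above the control points. The dashed line marks the filter of 1 FPKM.

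No member passed the threshold in the comparison of melatonin with control, the single comparison of the design. Plagl1 had the higher values in all 4 melatonin libraries, Rian had a mean of 69.0% of control with overlapping groups, and Peg3, Grb10 and Snrpn had log2 fold changes of -0.03 to -0.01. With limma 0 of the 8 tested members had an adjusted p under 0.05, and so did 0% of the 14738 tested genes. At an unadjusted p under 0.05 there was 1 member, Plagl1, against 19.1% of all tested genes (1385 higher and 1436 lower with melatonin, or 1648 and 1022 with limma-voom on recovered fragments). Its groups did not overlap, which was so for 1 of 8 members and for 11.7% of tested genes (5.79% higher and 5.94% lower with melatonin). The median log2 fold change was -0.02 over the 8 members and -0.01 over all tested genes. These shares of the members were near or under the background.

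**Figure D2:**
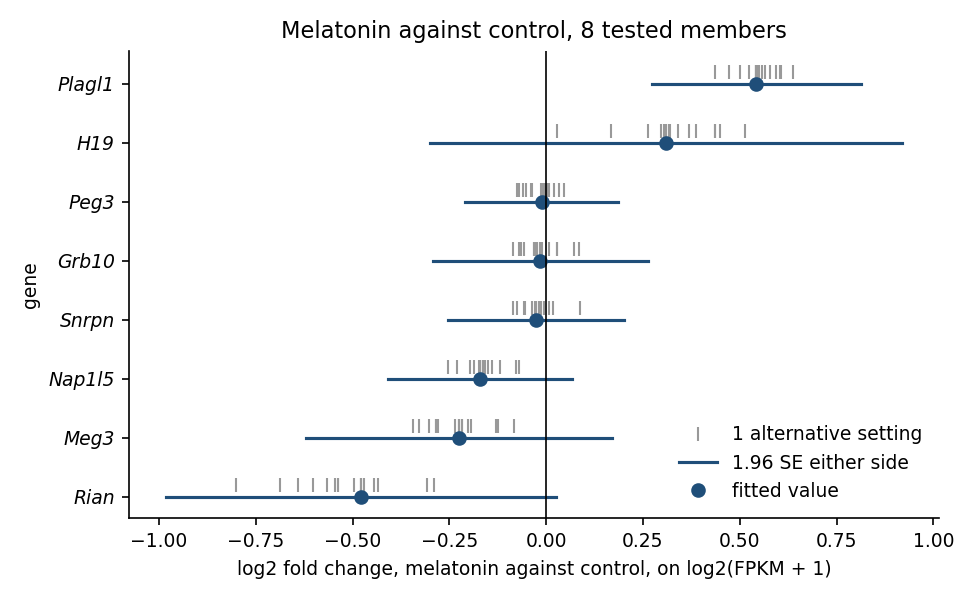
Log2 fold change of melatonin against control on the log2(FPKM + 1) scale for the 8 tested members, with lines of 1.96 standard errors either side of each point. Grey ticks are the values under 16 or 17 alternative settings, which stay above 0 for Plagl1 (0.44 to 0.64) and below 0 for Rian (-0.80 to -0.29), and lie on either side of 0 for Peg3, Grb10 and Snrpn.

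Plagl1 (also known as Zac1; chr10:13060504-13131694, plus strand) codes for a zinc finger transcription factor that restrains proliferation and regulates other imprinted genes. Its values were 35.1, 31.9, 22.7 and 26.2 FPKM in control replicates 1 to 4 and 48.8, 41.6, 42.1 and 36.8 FPKM in melatonin replicates 1 to 4. Each melatonin library was above the highest control library, by the least margin for melatonin replicate 4 over control replicate 1. The means were 29.0 ± 5.57 and 42.3 ± 4.96 FPKM (SD, n = 4 each), so that the melatonin mean was 146% of the control mean. The log2 fold change was 0.54 ± 0.14 SE, with a limma adjusted p of 0.142. Over 17 alternative settings the adjusted p ran from 0.0877 to 0.331. The measurement rested on 3917 to 9032 fragments per library, and 38 of the 7819 exon bases were shared with Gm27741 on the other strand.

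Summed levels of cell type markers are given beside this value. The sum over 10 granulosa markers was 8318 to 10937.5 FPKM in control and 6960 to 8079.5 FPKM in melatonin libraries. These ranges did not overlap, with the lower values under melatonin. Most of the sum was Inha, with a control mean of 6597 FPKM where the mean sum was 9539 FPKM. Of the 10 markers, 9 had a negative log2 fold change. In 2 of the 10 the groups did not overlap, against 11.7% of tested genes. Most tested genes were negative in each other list too. These were 9 of 9 stroma, 6 of 6 leukocyte, 6 of 6 surface epithelium and 5 of 5 endothelium markers. Theca had 6 of 7, oocyte 8 of 9, red blood cell 4 of 5 and smooth muscle 2 of 3. At an unadjusted limma p under 0.05 there were 5 granulosa, 3 theca, 3 surface epithelium and 2 endothelium markers, against 19.1% of tested genes. The other lists had 0. The sum over 6 surface epithelium markers also did not overlap (54.1 to 86.4 and 45.7 to 52.3 FPKM). Sums for oocyte (315 to 490.2 and 299 to 390.1 FPKM), theca, stroma (247 to 287 and 201 to 261), endothelium (10.1 to 15.8 and 8.31 to 11.9), smooth muscle (34.6 to 58.3 and 35.8 to 57.5), leukocyte (29.1 to 129 and 26.4 to 44.8) and red blood cell markers (66.5 to 1545 and 125 to 479) overlapped between the groups. Control replicate 3 had the highest leukocyte and red blood cell sums (129 and 1545 FPKM). That library was also the highest for Meg3, Rian and Mirg. None of the marker lists had a gene at 0 in all 8 libraries. Their part in the member values was not tested. In whole follicles, fewer cells of a type and less RNA per cell cannot be told apart.

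Similarity of pattern was ranked by root-mean-square difference of centred log2(FPKM + 1) over the 8 libraries. The ranking covered 8849 genes of at least 5 FPKM and left out the members. The genes most similar to Plagl1 were Mlf1 (difference 0.10) and 4930503L19Rik (0.10). Mlf1 had 22.0 FPKM in control and 30.4 in melatonin on average. For 4930503L19Rik these means were 5.56 and 8.57 FPKM.

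The Dlk1-Meg3 cluster on chromosome 12 holds the paternally expressed Dlk1 and a run of maternally expressed non-coding RNAs, Meg3, Rian and Mirg, which are thought to arise from 1 long transcription unit and host many microRNAs and small nucleolar RNAs. Meg3 (chr12:109541001-109571726) had 15.9, 14.5, 23.5 and 23.3 FPKM in control replicates 1 to 4 and 15.2, 11.7, 20.1 and 18.3 FPKM in melatonin replicates 1 to 4. The groups overlapped widely, with control replicates 3 and 4 highest and melatonin replicate 2 lowest. The means were 19.3 ± 4.73 and 16.3 ± 3.71 FPKM (SD, n = 4 each), with a log2 fold change of -0.22 ± 0.20 SE and a limma adjusted p of 0.566. Leaving out 1 library moved this value to -0.083 (melatonin replicate 2), -0.12 (control replicate 3), -0.13 (control replicate 4) or -0.34 (control replicate 2).

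Rian (chr12:109603940-109661716), which hosts a cluster of C/D box small nucleolar RNAs, had 6.82, 6.25, 12.4 and 9.31 FPKM in control replicates 1 to 4. In melatonin replicates 1 to 4 it had 5.29, 3.56, 8.48 and 6.66 FPKM. Melatonin replicates 1 and 2 lay below all controls, while replicates 3 and 4 lay among them. The log2 fold change was -0.48 ± 0.26 SE, with a limma adjusted p of 0.347 (means 8.70 ± 2.81 and 5.999 ± 2.08 FPKM, SD, n = 4 each). The value was -0.31 without control replicate 3 and -0.29 without melatonin replicate 2, and it was -0.69 once library trends with GC content and length were removed. The longest Rian transcript has a GC content of 35.8% and that of Meg3 49.2%.

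Meg3 and Rian varied together from library to library. Over the 8 libraries Pearson's r of log2(FPKM + 1) was 0.947 (exact permutation p = 0.000298, adjusted p = 0.00119 over 4 pairs) and Spearman's rho was 0.952 (exact permutation p = 0.00114, adjusted p = 0.00456). With group means removed r was 0.959 (exact permutation p = 0.00174). Without control replicate 3 and melatonin replicate 2, the libraries farthest from the Meg3 median, r was 0.902 (exact permutation p = 0.0125, 6 libraries). Dlk1 was not shown to follow them: r was 0.398 with Meg3 (exact permutation p = 0.326, adjusted p = 0.556) and 0.338 with Rian (exact permutation p = 0.417, adjusted p = 0.556), and rho was 0.381 and 0.310 (exact permutation p = 0.360 and 0.462, adjusted p = 0.616 for each). Without control replicate 1 and melatonin replicate 1 these r values were 0.327 and 0.293. Closeness to Rian was not confined to the cluster: Hsd3b1, a gene outside it, had a similar pattern (given below). The share of all tested genes that vary this closely with Meg3 or Rian was not counted.

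Rian was also taken as a share of Meg3 within each library, which removes only changes by the same factor in both. Rian varied more than Meg3, with an SD of log2(FPKM + 1) over the 8 libraries of 0.471 against 0.332. In control replicates 1 to 4 the Rian FPKM was 42.8%, 43.1%, 52.9% and 40.1% of the Meg3 FPKM, and in melatonin replicates 1 to 4 it was 34.8%, 30.6%, 42.1% and 36.5%. The groups overlapped only through melatonin replicate 3, which lay above control replicate 4. The share was highest in control replicate 3 and lowest in melatonin replicate 2, as Meg3 itself was, so it is not free of the Meg3 level. The mean log2 ratio, with 1 added to each FPKM, was -1.08 ± 0.15 in the 4 control libraries and -1.33 ± 0.13 in the 4 melatonin libraries (SD). The difference of -0.25 had a two-sided exact permutation p of 0.0571 (adjusted p = 0.171 over 3 ratios), where the smallest p that 70 assignments allow is 0.0286. With GC and length trends removed the difference was -0.40 (exact permutation p = 0.0286, the smallest possible). That p is not adjusted over the 3 ratios. Under the other 11 alternative settings the exact permutation p was 0.0571 to 0.114. The other ratios computed, H19 to Igf2 and Dlk1 to Meg3, are not given: with 1 added, Igf2 and Dlk1 hardly enter them.

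Mirg, the next RNA along the chromosome, was named after its values were seen and lay under the filter. It had 0.822, 0.904, 2.06 and 0.978 FPKM in control replicates 1 to 4 and 0.528, 0.261, 1.07 and 0.831 FPKM in melatonin replicates 1 to 4. The highest library in each group was again replicate 3 and the lowest of all melatonin replicate 2. The melatonin mean was 84.6% of the control mean for Meg3, 69.0% for Rian and 56.5% for Mirg, values that were not tested as a series. Control replicate 3 weighs on them, and without it they were 91.2%, 80.4% and 74.7%. Mirg has a GC content of 51.9%.

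**Figure D3:**
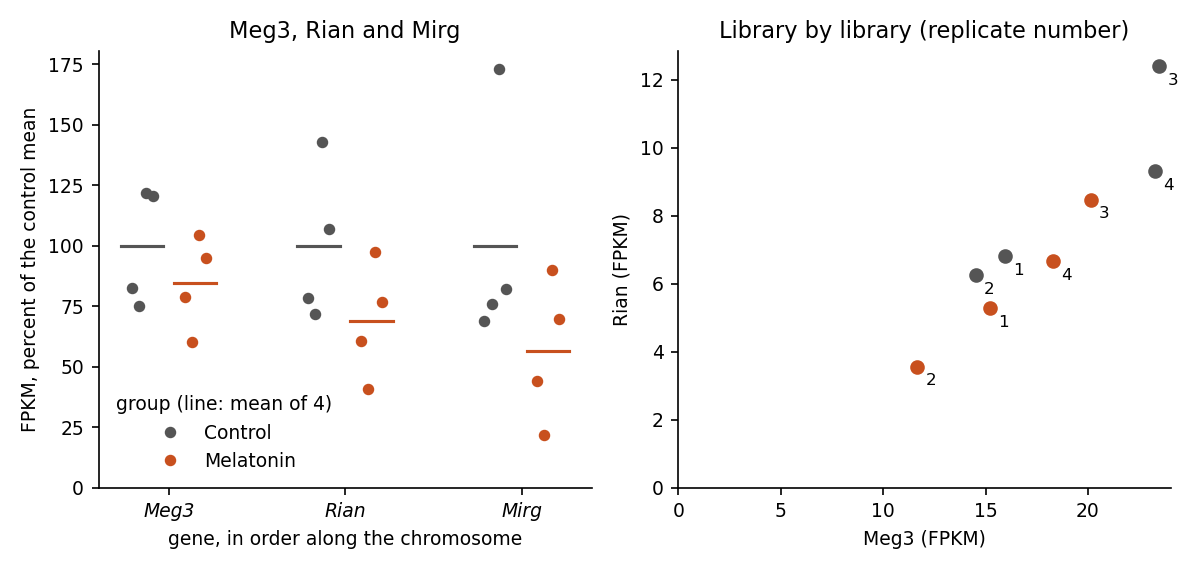
Left, FPKM of Meg3, Rian and Mirg as percent of each gene's control mean, with points for libraries and lines for the mean of 4; the melatonin means lie at 84.6%, 69.0% and 56.5%. Right, Rian against Meg3 in FPKM with replicate numbers; the 8 libraries lie along a rising line, from melatonin replicate 2 to control replicate 3.

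Among non-member genes, the one most similar in pattern to Rian was Hsd3b1, a steroid dehydrogenase gene in the theca marker list (root-mean-square difference 0.15). Next was the desaturase gene Fads2 (0.18). Meg3, as a member, was left out of this ranking. Hsd3b1 had 909, 942, 1264 and 1035 FPKM in control replicates 1 to 4 and 757, 574, 1138 and 865 in melatonin replicates 1 to 4. Like Rian, it was highest in control replicate 3 and lowest in melatonin replicate 2. Hsd3b1 made up most of the summed theca markers, with control sums of 973 to 1323 FPKM and melatonin sums of 607 to 1172 FPKM. In control replicates 1 to 4 the other 8 theca markers summed to 64.1, 58.4, 58.4 and 61.4 FPKM (mean 60.6). In melatonin replicates 1 to 4 they summed to 34.1, 32.4, 33.9 and 61.1 FPKM (mean 40.4). This sum was lowest in melatonin replicate 2, like Rian, and highest in control replicate 1, unlike Rian. The part of theca cells in the Rian values was not tested.

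Dlk1 (chr12:109452823-109463336) codes for a transmembrane protein of the Notch ligand type that holds back differentiation. Its 0.194, 0.294, 0.473 and 0.401 FPKM in control replicates 1 to 4 and 0.224, 0.411, 0.324 and 0.374 FPKM in melatonin replicates 1 to 4 rested on 22 to 59 fragments per library. The means were 0.341 ± 0.122 and 0.333 ± 0.081 FPKM (SD, n = 4 each), and the ranges overlapped throughout. Of 13 Notch receptors, ligands and targets, 8 were tested and none had an unadjusted p under 0.05, against 19.1% of all tested genes. The 2 of smallest p were Hes1, a repressor downstream of Notch (3.25 ± 0.39 and 3.93 ± 0.50 FPKM), and Hey2, a related factor (17.95 ± 2.62 and 15.5 ± 0.76 FPKM). Of the cluster's neighbours at 1 FPKM or more, Dio3, a thyroid hormone deiodinase gene, had 1.52 and 1.46 FPKM and Wdr25 1.97 and 1.81 FPKM in control and melatonin.

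H19 and Igf2 share enhancers and a control region on chromosome 7, where CTCF binding on the maternal copy keeps Igf2 silent. H19 (chr7:142575529-142578143) had 8.04, 2.87, 9.59 and 5.30 FPKM in control replicates 1 to 4. In melatonin replicates 1 to 4 it had 7.74, 7.44, 10.6 and 5.44 FPKM. Among the 8 tested members it had the widest spread of log2(FPKM + 1), with a within-group SD of 0.52, at percentile 95.6 of the tested genes. The low value of control replicate 2 rested on 123 fragments. The means were 6.45 ± 2.98 and 7.81 ± 2.13 FPKM (SD, n = 4 each), with a log2 fold change of 0.31 ± 0.31 SE (limma adjusted p = 0.610), and of 0.03 without control replicate 2. The non-member genes with the most similar pattern were the small nucleolar RNA genes Gm24500 (root-mean-square difference 0.24) and Gm22661 (0.28), of 124 and 132 bases. Genes this short reach 5 FPKM with few fragments, and the part of counting error in this likeness was not tested.

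Igf2, the fetal growth factor, was listed at 0.0611, 0.0100, 0.00793 and 0.0238 FPKM in control replicates 1 to 4 and at 0.00739, 0.0162, 0.0188 and 0.0246 FPKM in melatonin replicates 1 to 4. These values came from 7, 1, 1 and 3 and from 1, 2, 2 and 3 fragments. Summed over libraries there were 12 fragments in control (exact Poisson 95% interval 6.20 to 21.0) and 8 in melatonin (3.45 to 15.8), intervals that cover counting error only and overlap. The level of Igf2 transcript cannot be read from this table. Of its 5723 exon bases, 3596 (62.8%) are also exon of Gm49394, a same-strand gene that was listed at 0 in every library. Across the table, 289 genes lie wholly inside same-strand exons of a gene of at least 5 FPKM, and 288 of these were listed at 0 in all 8 libraries. The authors' rule for fragments on shared bases is not given in the sources used here. Between H19 and Igf2, r was 0.129 (exact permutation p = 0.732, adjusted p = 0.732), and -0.15 without control replicates 2 and 4. Spearman's rho was -0.07 (exact permutation p = 0.882, adjusted p = 0.882). With 1 to 7 Igf2 fragments per library, these values cannot show whether the 2 genes vary together.

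H19 also hosts a microRNA, shown because it lies wholly within H19 exon sequence and was listed at 0 in every library. The mature arms from RefSeq (GRCm38.p6, minus strand) lie at chr7:142577112-142577133 and chr7:142577078-142577099, with the seed, bases 2 to 8, in capitals. These libraries did not measure mature microRNAs.
mmu-miR-675-5p: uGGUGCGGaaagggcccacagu
mmu-miR-675-3p: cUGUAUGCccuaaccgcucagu
In all, 13 genes of the table lie wholly inside same-strand exons of a member (in H19, Meg3, Rian and Snrpn), and all 13 were at 0 in the 8 libraries. Dlk1, Peg3, Nap1l5 and Grb10 share no exon base with another gene of the table.

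Near Igf2, the neighbours at 1 FPKM or more were Mrpl23, a mitochondrial ribosomal protein gene (12.1 ± 0.33 and 11.2 ± 0.47 FPKM), Lsp1 (1.44 ± 0.60 and 0.968 ± 0.092) and Th, the tyrosine hydroxylase gene (1.19 ± 0.18 and 1.13 ± 0.16). None had an unadjusted p under 0.05. Of 17 genes around IGF2 and GRB10 signalling, 12 were tested, 6 with a positive and 6 with a negative log2 fold change (median 0.01, and -0.01 over all tested genes). None passed the threshold. At an unadjusted p under 0.05, 1 was higher and 2 were lower, against 9.4% and 9.74% of all tested genes. Igf2r, the receptor that clears IGF2, had 25.8 ± 1.83 and 22.0 ± 1.53 FPKM (log2 fold change -0.22, limma adjusted p = 0.161). Insr, the insulin receptor gene, had 15.2 ± 2.34 and 19.6 ± 1.76 FPKM (0.35, limma adjusted p = 0.168). In each of these 2 genes the groups did not overlap.

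Grb10 (chr11:11930508-12038683), an adaptor that dampens insulin and IGF receptor signalling, had 1.48, 2.08, 1.29 and 1.49 FPKM in control replicates 1 to 4. The melatonin replicates 1 to 4 had 1.94, 1.44, 1.07 and 1.82 FPKM, within nearly the same range. The log2 fold change was -0.01 ± 0.14 SE (limma adjusted p = 0.967), for an interval of 1.96 SE either side from -0.29 to 0.26. Cobl, next to it, had 3.75 ± 0.30 and 3.52 ± 0.45 FPKM (SD, n = 4 each).

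Nap1l5 (chr6:58905233-58907076, minus strand) is an intronless gene related to nucleosome assembly proteins, inside the span of Herc3 on the other strand. It had 464, 337, 425 and 321 FPKM in control replicates 1 to 4 and 331, 359, 351 and 319 FPKM in melatonin replicates 1 to 4. Control replicates 1 and 3 stood above the other 6 libraries, which lay between 319 and 359 FPKM. The log2 fold change was -0.17 ± 0.12 SE (limma adjusted p = 0.470, means 387 ± 68.8 and 339.9 ± 18.4 FPKM, SD, n = 4 each). It was -0.077 without control replicate 1 and -0.069 with quantile normalization. Herc3 had 11.01 ± 0.70 and 11.8 ± 0.68 FPKM, a small fraction of the level of the gene inside it.

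Peg3 (chr7:6703892-6730431, minus strand), a large zinc finger protein gene linked to maternal behaviour and apoptosis, had 6.75, 6.57, 5.03 and 5.34 FPKM in control replicates 1 to 4. In melatonin replicates 1 to 4 it had 5.61, 5.68, 6.70 and 5.38 FPKM. The ranges coincided, and the log2 fold change was -0.01 ± 0.10 SE (limma adjusted p = 0.963), for an interval from -0.21 to 0.19.

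Snrpn (chr7:59982495-60140219, minus strand), which codes for the spliceosomal protein SmN and lies in the Prader-Willi region, had 5.23, 3.93, 3.36 and 3.45 FPKM in control replicates 1 to 4 and 3.54, 4.20, 3.74 and 3.96 FPKM in melatonin replicates 1 to 4. Control replicate 1 stood above the other libraries. The log2 fold change was -0.03 ± 0.12 SE (limma adjusted p = 0.924), for an interval from -0.25 to 0.20. Snrpn shares 589 of its 2159 exon bases with Gm38393 (1.51 to 3.60 FPKM over the libraries) and 216 with Snurf, listed at 0, so its level is uncertain. In the same region Ndn, a MAGE family growth suppressor gene, had 7.75 ± 0.70 and 6.97 ± 0.42 FPKM. Mkrn3 had 1.30 ± 0.39 and 1.62 ± 0.18 FPKM, and Ube3a, a ubiquitin ligase gene, 4.59 ± 0.34 and 4.97 ± 0.056 FPKM. Of the 27 neighbours of the members, 25 were in the table and 10 were tested, and none of these had an unadjusted p under 0.05 (19.1% of all tested genes) or groups that did not overlap (11.7%).

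Other imprinted genes were spread on either side of zero. Of 66 in the list, which holds some of the neighbours above, 39 were tested, 16 with a positive and 23 with a negative log2 fold change (median -0.08, range -0.52 to 0.51). None passed the threshold, 3 were higher and 9 lower at an unadjusted p under 0.05, against 9.4% and 9.74% of all tested genes. In 9 of the 39 (23.1%) the groups did not overlap, against 11.7%. The 2 of smallest p were Ppp1r9a, a neuronal scaffold protein gene (14.9 ± 1.09 and 20.0 ± 1.99 FPKM, limma adjusted p = 0.120), and Peg10, a gene derived from a retrotransposon (15.3 ± 3.56 and 21.7 ± 0.94 FPKM, limma adjusted p = 0.148). They lie near each other on chromosome 6.

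**Figure D4:**
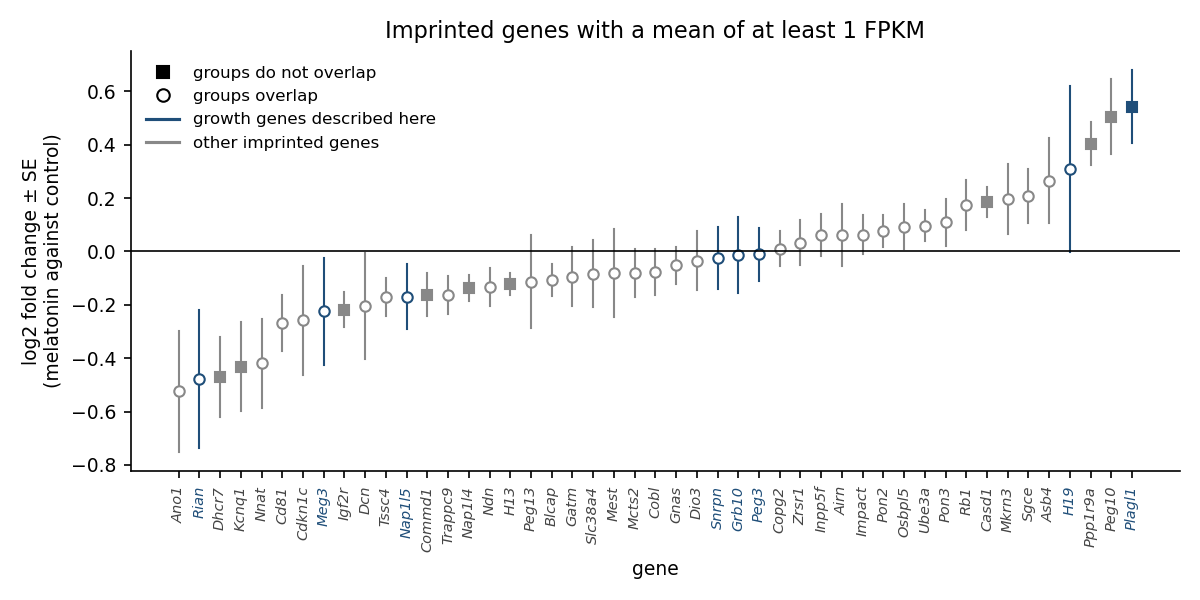
Log2 fold change ± SE on the log2(FPKM + 1) scale for the 8 tested growth genes (blue) and 39 other imprinted genes (grey), in rising order. Plagl1 is at the upper end at 0.54, Ano1 at the lower end at -0.52 and Rian next to it at -0.48; filled squares mark genes whose groups did not overlap.

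Factors that set or keep imprints, listed with the methylcytosine-oxidising enzymes Tet1, Tet2 and Tet3, were mostly expressed. Nlrp5 and Dppa3 in this list are also oocyte markers, of which 8 of 9 tested had a negative log2 fold change. Of the 18 listed factors, 17 were tested, 3 with a positive and 14 with a negative log2 fold change (median -0.07). All tested genes had 7004 and 7734 (median -0.01). None of the factors passed the threshold. The 2 of smallest p were the 2 whose groups did not overlap, 11.8% of the 17 against 11.7% of all tested genes. Zfp445, a zinc finger protein that maintains imprints, had 35.4 ± 2.33 and 43.7 ± 0.96 FPKM (log2 fold change 0.30 ± 0.05 SE, limma adjusted p = 0.120). Tet2, an enzyme that oxidises methylcytosine, had 2.31 ± 0.054 and 2.83 ± 0.094 FPKM (0.21 ± 0.06 SE, limma adjusted p = 0.148).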

How the data were processed

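RNA from type 7-8 follicles was profiled in 8 libraries. The authors aligned reads to mm10 with HISAT2 2.0.5, per the submitters' processing notes. For the counter, the annotation, the strand setting and the rule for shared exons, the entry is: not given in the sources used here. Per the file headers, each gene has a deposited FPKM value. The table of the whole series differed from the 8 sample files in 0 cells.

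The 14738 of 55157 genes whose mean reached 1 FPKM entered a limma fit (limma 3.58.1, R 4.3.3, trended eBayes) of log2(FPKM + 1) on group. Benjamini-Hochberg adjustment ran over all 14738 genes, with a threshold of 0.05. Members under the filter have values only. Ratios and pairs of genes were tested by exact permutation in Python 3.11.15 with scipy 1.17.1. The limma fit with trended eBayes was tested on simulated log2 values with known changes. The permutation tests and the other steps were not tested in this way.

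Fragments per gene were recovered as FPKM times exon length (GENCODE M21) divided by the value of 1 fragment. Of values of up to 30 fragments, 98.8% were whole within 0.05 fragments. The libraries held 17451111 to 23649205 assigned fragments, so 1 fragment on 1 kb was worth 0.0423 to 0.0573 FPKM.

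Members and lists were chosen with earlier results of these data known. Beside the members, the text names the neighbours of the members with a mean of at least 1 FPKM and the 2 genes of smallest p in each other list. It also names the 2 non-member genes of most similar pattern for each of the 3 members most variable on the log2(FPKM + 1) scale. Other genes are named as chosen after their values were seen. Alternatives were quantile normalization, median-ratio scaling, a pseudocount of 0.1, no filter, a filter of 5 FPKM, the replicate number as a block, removal of GC and length trends (splines with 5 degrees of freedom), limma-voom on recovered fragments and leaving out each library. A limma-voom fit with GC and length trends removed was added after the data were seen.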

Additional observations from a re-analysis of the deposited data

Results flagged for a closer look

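Control replicate 2 stood apart from the other control libraries for Igf2r, at 28.5 FPKM where the next highest was control replicate 4 at 24.99. The gap was 0.918 of the group's range, past Dixon's limit for 4 samples. Mirg in control replicate 3 was at 2.06 FPKM, with the next at 0.978 and a gap of 0.874 of the range. Col1a2 in control replicate 2 was at 20.5 FPKM, with the next at 9.50 and a gap of 0.934. Asb4 in control replicate 4 was at 11.6 FPKM, with the next at 7.51 and a gap of 0.854. These were 4 cases among 93 groups of libraries looked at, where chance gives about 1 in 20 groups.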

How the results depend on the processing

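The number of genes past the threshold was 0 in the fit reported and 1 both without a filter (Mir6947, 1.52 FPKM in control and listed at 0 in melatonin) and without control replicate 1 (C1rb, 3.13 and 0.736 FPKM), genes named after their values were seen, so that the fits leaving out a library gave 0 to 1. No member passed under any setting run. Plagl1, H19, Meg3, Rian and Nap1l5 kept their direction under all 17 settings. The log2 fold change of Peg3 turned to 0.0082 with limma-voom on recovered fragments and ran from -0.075 to 0.046 when a library was left out. Grb10 turned to 0.027 with limma-voom, with or without GC and length trends removed, and ran from -0.085 to 0.084. Snrpn turned to 0.017 with limma-voom after removal of these trends and ran from -0.085 to 0.086. The cause was not tested. The median log2 fold change of the neighbours was -0.018 without a filter and -0.10 with a filter of 5 FPKM, where other genes are tested. That of other imprinted genes was -0.018 without a filter and ran from -0.094 to -0.036 when a library was left out. The difference in the Rian to Meg3 ratio was -0.40 after removal of GC and length trends. The r of H19 and Igf2 was -0.15 without the 2 farthest libraries. With the replicate number as a block 0 genes passed, 2776 had an unadjusted p under 0.05 against 2821 without it, and no member passed the adjusted threshold. At an unadjusted p under 0.05 there were 3 members with the block, in place of 1: Plagl1, Rian and Meg3, with limma adjusted p of 0.149, 0.144 and 0.180. Rian and Meg3 were lower with melatonin in 4 of 4 same-numbered pairs. Same-numbered libraries correlated at -0.103 to 0.151, and only for replicate 3 was the match with its own number the best, so that the block rests on a shared number alone. Igf2 and Dlk1 lie under the filter, and the fit without one gave each a log2 fold change of -0.01.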

Other observations

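On chromosome 6, neighbouring genes of the imprinted Sgce-Peg10 domain had positive log2 fold changes side by side, a set chosen after its values were seen. In order along the chromosome these were Casd1 (0.19), Sgce (0.21), Peg10 (0.51), Ppp1r9a (0.40), Pon3 (0.11), Pon2 (0.08) and Asb4 (0.27), with limma adjusted p of 0.156, 0.309, 0.148, 0.120, 0.516, 0.511 and 0.393. Peg10 had 13.3, 16.9, 11.5 and 19.4 FPKM in control replicates 1 to 4 and 22.8, 20.9, 22.3 and 20.9 FPKM in melatonin replicates 1 to 4. The groups did not overlap for Peg10, Casd1 and Ppp1r9a and overlapped for the other genes, where 5.79% of all tested genes were higher with melatonin without overlap. Col1a2, which lies before Casd1 and is in the stroma marker list, had -0.37 (limma adjusted p = 0.507). Sgce, which codes for epsilon-sarcoglycan and starts beside Peg10 on the other strand, had 7.80 ± 0.78 and 9.19 ± 1.22 FPKM (SD, n = 4 each).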
